A study of Mus musculus with 6 samples.

Results

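The small leucine-rich proteoglycans (SLRPs) considered here are 10 genes chosen by name: decorin (Dcn), biglycan (Bgn), asporin (Aspn), fibromodulin (Fmod), lumican (Lum), prolargin (Prelp), osteomodulin (Omd), epiphycan (Epyc), osteoglycin (Ogn) and chondroadherin (Chad). All 10 were found by symbol among the 55487 genes of the files, and all 10 were among the 14604 genes with enough counts to be tested. The samples were 6 stranded mRNA libraries of chondrocytes from the knee cartilage of C57B/6 mice, every one of them exposed for 24 h to macrophage extracellular vesicles at 10 µg/ml of protein. In the M-EV group (3 libraries) the vesicles came from macrophages without LPS, and in the M-LPS-EV group (3 libraries) from macrophages stimulated with LPS (lipopolysaccharide, a component of the bacterial outer membrane). Chondrocytes given no vesicles were not analysed here, so each difference is between 2 kinds of vesicle. The labels do not say whether replicates were separate cultures or animals, and p-values then measure only the spread between these libraries, which may be technical.

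SLRPs are secreted matrix proteins whose core is a curved stack of leucine-rich repeats. Many carry chondroitin, dermatan or keratan sulfate chains. In cartilage they bind the surface of collagen fibrils and affect their diameter and spacing, several bind TGF-β family growth factors, and soluble biglycan and decorin are known ligands of the Toll-like receptors TLR2 and TLR4. By sequence they fall into classes: decorin, biglycan and asporin are class I, fibromodulin, lumican, prolargin and osteomodulin class II, epiphycan and osteoglycin class III, and chondroadherin class IV.

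The libraries held between 20239626 and 25712667 expected counts. The chondrocyte label matched the markers. TPM (a level corrected for transcript length and scaled to a common total) was summed over 11 chondrocyte markers, among them Col2a1 and Acan. The sum ranged from 52093 to 52664 in the M-EV libraries, against 43080 to 44016 in the M-LPS-EV libraries. Of the 11 markers, 10 were called lower (edgeR, adjusted p under 0.05), against 15.2% of all tested genes. All 11 lie above a mean CPM (counts scaled to a common library total) of 20. At that level 22.7% of tested genes were called lower. Fewer cells of a type and less RNA per cell cannot be told apart in bulk libraries.

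The SLRP genes did not move in 1 direction. With M-LPS-EV, Dcn, Prelp, Lum, Fmod and Bgn rose and Ogn, Omd, Aspn, Chad and Epyc fell (edgeR quasi-likelihood test, Benjamini-Hochberg adjusted p under 0.05 over all tested genes). Of all tested genes, 31.6% were called, 16.4% higher and 15.2% lower. Aspn passed the count filter through the M-EV libraries, where it is high, and is left out of the counts that follow. The other 9 had a mean CPM of at least 20, and 7 of the 10 stood above the 95th percentile of mean CPM. All 9 were called, 5 higher and 4 lower, where 42.9% of the tested genes at that level were called, 20.2% higher and 22.7% lower. In none of the 9 did the groups overlap in CPM, which held for 42.2% of all tested genes and 52.4% of those at that level. The median log2 fold change of the 9 was 0.08, and that of all tested genes was 0.0028. Against a change of at least 1.2-fold, 6 of the 9 were called, 3 higher (Dcn, Lum, Prelp) and 3 lower (Ogn, Omd, Chad). The background of that test was 7.79% of all tested genes and 7.35% of those at that level.

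**Figure D1:**
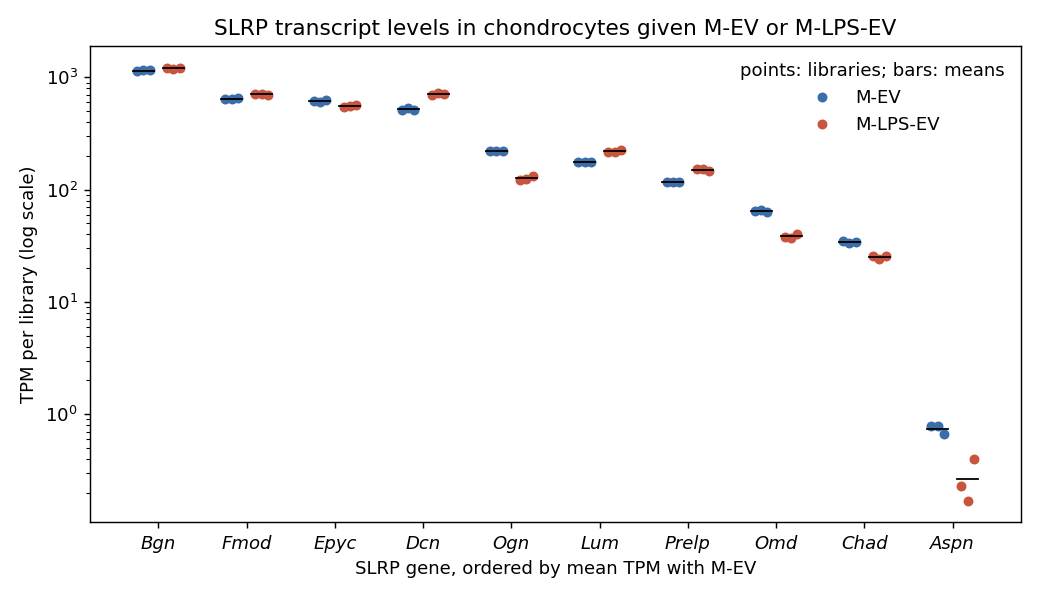
TPM of each SLRP gene in each library on a log axis, with points for libraries and a bar at the mean of the 3 libraries of a group. Bgn is the highest in every library, Aspn lies under 1 TPM throughout, and Ogn and Omd show the widest gaps between groups among the genes above 1 TPM.

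By TPM, the order with M-EV was Bgn, Fmod, Epyc, Dcn, Ogn, Lum, Prelp, Omd, Chad and Aspn. With M-LPS-EV, Dcn moved up to a mean of 712 TPM beside Fmod at 710, and the libraries of these 2 genes overlapped, while Ogn dropped below Lum and Prelp. Among all genes, Dcn went from rank 248 to rank 193 and Ogn from rank 600 to rank 1114.

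The class I members moved apart: Dcn and Bgn rose and Aspn fell. Decorin, which binds collagen fibrils and TGF-β and carries a single chondroitin or dermatan sulfate chain, had 517, 528 and 515 TPM in the M-EV libraries and 703, 719 and 714 TPM in the M-LPS-EV libraries. Every M-LPS-EV library lay far above every M-EV library. The rise in Dcn was 0.46 on the log2 scale (SE 0.02, 95% interval 0.42 to 0.50, 37.9% higher, edgeR adjusted p = 8.1e-16).

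Biglycan, decorin's nearest relative, had 1135, 1154 and 1157 TPM with M-EV and 1222, 1198 and 1207 TPM with M-LPS-EV. The Bgn groups did not overlap, but the closest libraries were only a few percent apart. Its rise was 0.08 on the log2 scale (SE 0.02, interval 0.05 to 0.12, edgeR adjusted p = 0.00067), and it was not called against a change of at least 1.2-fold (adjusted p = 1).

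Asporin, an aspartate-rich class I member known to inhibit TGF-β, was the scarcest. It had 0.78, 0.79 and 0.66 TPM with M-EV and 0.23, 0.17 and 0.40 TPM with M-LPS-EV, from 24, 21 and 18 against 6, 5 and 10 counts. The groups did not overlap, and M-LPS-EV replicate 3 was the highest of its group. The change of Aspn was -1.46 on the log2 scale (SE 0.38, interval -2.24 to -0.69, edgeR adjusted p = 0.0036). Its wide interval comes with 63 counts in 1 group and 21 in the other, and the gene passed the count filter through the M-EV libraries. Leaving out 1 library at a time gave -1.85 to -1.21. The interval of -2.24 to -0.69 holds the change of Ogn. On the log2(TPM + 1) scale the change of Aspn was -0.46. Aspn lies below the added 1 in every library, which shrinks its change there. That scale therefore cannot rank Aspn against Ogn and Omd.

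Most class II members rose, Fmod, Lum and Prelp, given here in order of level. Fibromodulin, a keratan sulfate proteoglycan that binds collagen fibrils, had 648, 638 and 650 TPM with M-EV and 710, 718 and 702 TPM with M-LPS-EV. The groups were apart by more than the spread within either. The rise of Fmod was 0.15 on the log2 scale (SE 0.02, interval 0.11 to 0.19, edgeR adjusted p = 1.3e-07), below what the test of at least 1.2-fold called.

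Lumican, which shares a collagen binding site with fibromodulin, had 177, 175 and 178 TPM with M-EV and 216, 218 and 224 TPM with M-LPS-EV. All M-LPS-EV libraries lay above all M-EV libraries. Lum rose by 0.33 on the log2 scale (SE 0.02, interval 0.28 to 0.38, edgeR adjusted p = 2.3e-11). Prolargin, a member whose basic N terminus binds heparin and heparan sulfate, had 118, 116 and 117 TPM with M-EV against 152, 154 and 147 TPM with M-LPS-EV. Again the groups were well apart. Prelp rose by 0.38 on the log2 scale (SE 0.02, interval 0.33 to 0.43, edgeR adjusted p = 2.8e-12).

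Osteomodulin, the class II member best known from bone, fell. It had 64.3, 65.8 and 62.6 TPM with M-EV and 37.9, 36.9 and 40.4 TPM with M-LPS-EV, with a gap between the groups several times wider than either group's range. The change of Omd was -0.73 on the log2 scale (SE 0.05, interval -0.83 to -0.64, edgeR adjusted p = 1.4e-12), a fall of the mean TPM from 64.2 ± 1.59 (SD, n = 3) to 38.4 ± 1.83 (SD, n = 3).

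Both class III members fell, by unequal amounts. Osteoglycin, also called mimecan, had 221, 222 and 219 TPM with M-EV and 123, 124 and 131 TPM with M-LPS-EV. No library came near the other group. The change of Ogn was -0.79 on the log2 scale (SE 0.03, interval -0.85 to -0.74, edgeR adjusted p = 2.5e-18), with an absolute change larger than that of 95.4% of tested genes.

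Epiphycan, a dermatan sulfate proteoglycan of growth plate cartilage, had 616, 600 and 630 TPM with M-EV and 542, 556 and 571 TPM with M-LPS-EV. The groups lay close without overlapping. The change of Epyc was -0.13 on the log2 scale (SE 0.02, interval -0.18 to -0.08, edgeR adjusted p = 6.1e-05), and it was not called against a change of at least 1.2-fold (adjusted p = 1).

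Chondroadherin, a class IV member that binds collagen and integrins, had 35.2, 33.5 and 34.3 TPM with M-EV and 25.8, 24.1 and 25.5 TPM with M-LPS-EV. All 3 M-LPS-EV libraries were lower. The change of Chad was -0.44 on the log2 scale (SE 0.05, interval -0.55 to -0.33, edgeR adjusted p = 3.0e-07).

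**Figure D2:**
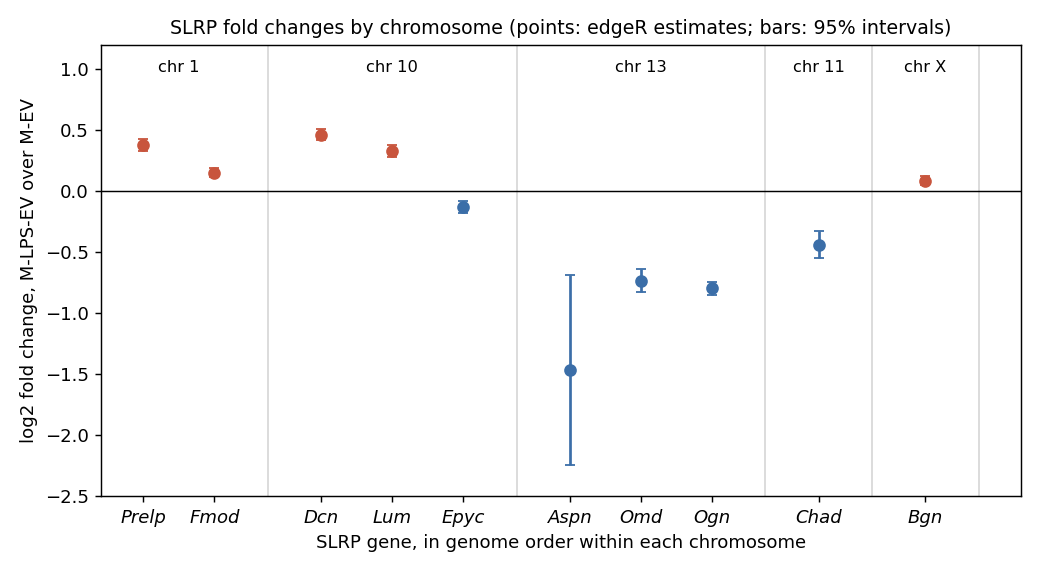
Log2 fold change of each SLRP gene, M-LPS-EV over M-EV, with the 95% interval from the edgeR fit and a line at 0. The genes are grouped by chromosome and ordered along it, red above 0 and blue below, and no interval reaches 0: Dcn is the highest at 0.46, and Aspn the lowest at -1.46 with the widest interval.

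The summed level of the 10 genes changed less than most of its members. It was 3543 ± 17.8 TPM (SD, n = 3) with M-EV and 3748 ± 15.7 TPM (SD, n = 3) with M-LPS-EV, or 0.354% and 0.375% of all TPM. Within that sum, the share of Dcn went from 14.7% to 19.0%, that of Epyc from 17.4% to 14.8%, that of Ogn from 6.23% to 3.37% and that of Omd from 1.81% to 1.02%. Bgn kept about the same share, 32.4% and 32.3%.

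**Figure D3:**
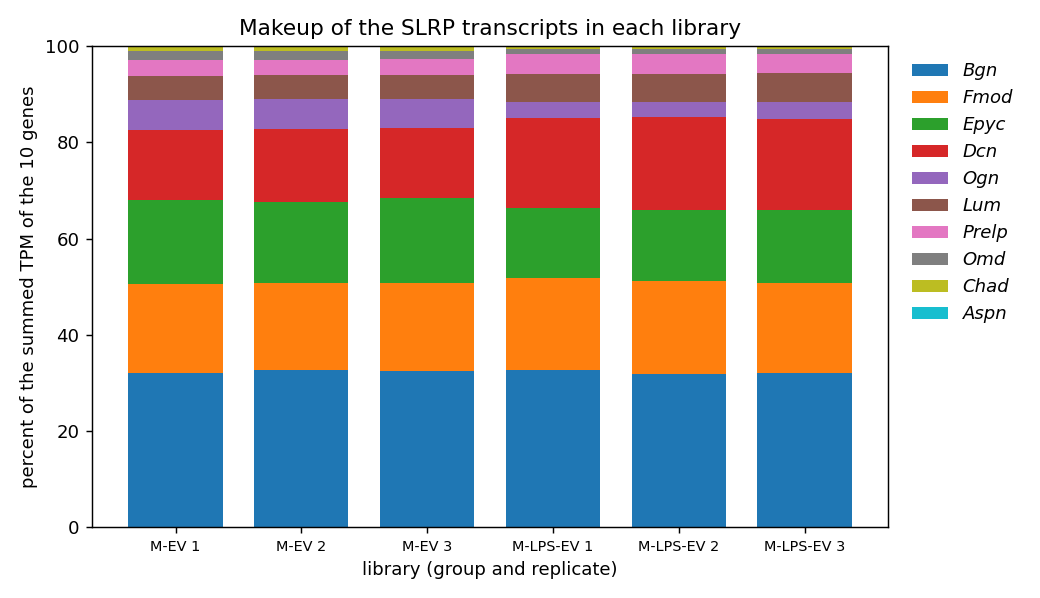
Stacked bars give the percent of the summed TPM of the 10 SLRP genes held by each gene, with 1 bar per library. The Dcn band is wider (a mean of 19.0% against 14.7%) and the Ogn band narrower (3.37% against 6.23%) in the M-LPS-EV libraries, and Aspn is too scarce to be seen.

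Ratios within a library do not depend on library scaling. The log2 TPM ratio was compared for 6 pairs of related members. Each exact two-sided permutation test gave p = 0.1 (0.1 after adjustment over the 6 pairs), the smallest that 3 against 3 libraries allow. In none of the pairs without Aspn did the ratio overlap between groups. Over all pairs of tested genes at or above a mean CPM of 20, the ratio did not overlap in 45.9%. Aspn lies below that level, so this share does not cover Aspn to Omd. The paired members were each called already. The ratio of Dcn to Bgn, the class I pair, was -1.14 ± 0.022 (SD, n = 3) with M-EV and -0.76 ± 0.031 (SD, n = 3) with M-LPS-EV on the log2 scale, a move from 0.453 to 0.589 Dcn transcripts per Bgn transcript. For the class II pairs, Fmod to Lum differed by -0.18 and Fmod to Prelp by -0.23 on that scale. Dcn to Lum, neighbours on chromosome 10, differed by 0.14. Ogn to Omd, neighbours on chromosome 13, differed by only -0.06, so that the 2 genes fell almost in step. Aspn to Omd differed by -0.82 with the scatter of Aspn's few counts. The closest libraries of that pair stood at -6.57 with M-EV and -6.66 with M-LPS-EV.

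Most of the genes lie in 3 clusters (GENCODE M21, build mm10). Aspn (chr13:49544443-49567565), Omd (chr13:49582462-49592822) and Ogn (chr13:49608046-49624501) follow each other on the plus strand with gaps of 14.9 and 15.2 kb, and all 3 fell. They lie inside Cenpp, a centromere protein gene on the opposite strand, which was not called (change of 0.09 on the log2 scale with an SE of 0.10, adjusted p = 0.55 in edgeR) and shares 7, 0 and 0 exonic bases with Aspn, Omd and Ogn. The SLRP relative beside the cluster, Ecm2, was not called either (-0.06, SE 0.14, edgeR adjusted p = 0.81). Of 12 other tested genes within 500 kb of this cluster, 2 rose, 2 fell and 8 were not called, shares near the 16.4% and 15.2% of all tested genes.

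On chromosome 10, Dcn (chr10:97479609-97518143) and Lum (chr10:97565128-97572703) rose, and Epyc (chr10:97644068-97682454), 71.4 kb beyond Lum on the same strand, fell. Keratocan (Kera), the SLRP gene between Lum and Epyc, had 3 and 2 counts over the groups and was not tested. The only other tested gene within 500 kb of this cluster, Gm10754, rose. On chromosome 1, Prelp (chr1:133910304-133921414, minus strand) and Fmod (chr1:134037254-134048277, plus strand) lie head to head 115.8 kb apart, and both rose. Of 20 other tested genes within 500 kb of this pair, 6 rose, 2 fell and 12 were not called. Of all tested genes, 16.4% were called higher and 15.2% lower. Zc3h11a stands among both the rises and the falls, through overlapping entries at 0.67 and -0.72. Gm38394, over the same span, was not called (0.08). How reads were shared between these entries was not tested. Chad (chr11:94565047-94569127) lies within Acsf2, an acyl-CoA synthetase gene on the other strand, which was not called (0.05, SE 0.08, edgeR adjusted p = 0.66) and shares no exonic base with it. Bgn stands by itself at chrX:73483602-73495933. Antisense genes overlap 9.68% of the exonic bases of Prelp (Gm15851, mean CPM 1.27) and 40.6% of those of Epyc (Gm10754, mean CPM 1.56). Both were called higher, Gm15851 by 0.71 (SE 0.27, edgeR adjusted p = 0.047) and Gm10754 by 0.65 (SE 0.24, edgeR adjusted p = 0.039), so Gm10754 moved opposite to Epyc. The strand setting of the counting is not given by any label or header, and these antisense levels are far below those of Prelp and Epyc.

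The promoter windows of 2 members that fell and the 2 chromosome 1 members that rose are shown. Each pair shared a direction, not a size of change. The log2 fold changes were -0.79 for Ogn and -1.46 for Aspn, with few counts, and 0.38 for Prelp and 0.15 for Fmod. They are RefSeq windows (build GRCm38.p6), 5′ to 3′ on the gene's strand, from 250 bases before to 50 bases after the annotated start. Capitals mark matches on either strand to 1 of 5 motifs: a TATA box (TATAAA), an AP-1 site (TGANTCA), an NF-kB site (GGG, any 5 bases, CC), a C/EBP site (TTGCNNAA) and a SOX site (AACAAT, on the other strand ATTGTT).
Ogn promoter, chr13:49607765-49608064, plus strand: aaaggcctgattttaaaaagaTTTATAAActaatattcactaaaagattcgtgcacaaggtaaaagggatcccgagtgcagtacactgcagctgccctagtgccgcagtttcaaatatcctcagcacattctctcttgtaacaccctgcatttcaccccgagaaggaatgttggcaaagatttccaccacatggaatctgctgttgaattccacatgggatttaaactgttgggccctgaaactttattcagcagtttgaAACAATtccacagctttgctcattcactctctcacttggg
Aspn promoter, chr13:49544193-49544492, plus strand: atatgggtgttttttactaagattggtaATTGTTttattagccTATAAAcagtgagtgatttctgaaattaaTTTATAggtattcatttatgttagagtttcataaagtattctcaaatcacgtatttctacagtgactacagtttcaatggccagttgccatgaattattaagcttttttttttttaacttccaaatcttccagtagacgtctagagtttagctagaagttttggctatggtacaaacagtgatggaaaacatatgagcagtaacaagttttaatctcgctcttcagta
Prelp promoter, chr1:133921352-133921651, minus strand: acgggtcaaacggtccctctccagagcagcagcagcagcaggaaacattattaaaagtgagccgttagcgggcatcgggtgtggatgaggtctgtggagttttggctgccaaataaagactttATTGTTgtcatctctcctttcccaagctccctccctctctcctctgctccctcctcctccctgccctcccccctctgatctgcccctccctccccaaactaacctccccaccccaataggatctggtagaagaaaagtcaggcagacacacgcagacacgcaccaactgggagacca
Fmod promoter, chr1:134037004-134037303, plus strand: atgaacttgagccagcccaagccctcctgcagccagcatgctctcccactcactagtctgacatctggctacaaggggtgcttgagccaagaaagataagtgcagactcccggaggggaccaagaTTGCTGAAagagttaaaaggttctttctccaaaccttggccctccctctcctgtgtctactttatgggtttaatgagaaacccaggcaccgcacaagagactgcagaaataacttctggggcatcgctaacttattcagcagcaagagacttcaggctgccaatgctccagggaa
Positions are those of the first base of a match, with the start counted as 1 and the base before it as -1. The Ogn window holds overlapping TATA box letters at -229 and -227, 1 on each strand, and a SOX match at 11. The Aspn window holds TATA box letters at -207 and -178 and a SOX match at -222. Prelp has a SOX match at -127 and Fmod a C/EBP match at -125.

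RefSeq windows were found for 8 of the 10 genes, Epyc having 2, and for these no window held the AP-1 letters. Over all 32851 windows of the table the shares with a match were 13.6% for the TATA box, 7.81% for AP-1, 50.8% for NF-kB, 10.8% for C/EBP and 10.7% for SOX. Of the windows not printed, that of Chad held TATA box letters at -28 and overlapping NF-kB letters at -187 and -186, both Epyc windows held SOX letters, and those of Omd and Bgn held none of the 5. The Omd window belongs to the start of a minor transcript. A match describes letters only.

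The files list 26 transcripts of the 10 genes, with more than 1 for 7 of them. For transcripts tested separately, 4.45% of 37245 were called (2.45% higher, 2.00% lower). The main transcripts moved as their genes did. Dcn-201 rose by 0.45 (SE 0.02, edgeR adjusted p = 8.9e-05), Prelp-201 by 0.38, Lum-201 by 0.33 and Fmod-201 by 0.15 on the log2 scale. Changes were -0.79 for Ogn-201, -0.72 for Omd-201 and -0.44 for Chad-201, all called. Epyc-201 was just past the threshold (-0.14, edgeR adjusted p = 0.0498), and leaving out any 1 library gave adjusted p from 0.067 to 0.149. Bgn-201 was not called (0.08, edgeR adjusted p = 0.089), though DESeq2 called it (0.08, DESeq2 adjusted p = 0.0039). Bgn-208 was not called either (0.13, edgeR adjusted p = 0.82). Bgn-208 and Omd-201 each have 0 bases that are in no other transcript. The error of assigning shared reads is not in these values.

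Transcripts of Aspn could not be read apart. Only 25 bases of Aspn-201 and 44 bases of Aspn-202 are in no other transcript, and in M-LPS-EV replicate 3 all 10 counts were assigned to Aspn-202. Aspn-201 had a fitted change of -2.22 and was not called (edgeR adjusted p = 0.32).

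A minor decorin transcript, Dcn-202, changed by more than its gene and was picked for naming only once its values were known. It starts 2758 bases downstream of Dcn-201 in another first exon and shares 1577 bases with it, while 181 bases of each are not in the other. RSEM assigned it 52.2, 32.8 and 28.8 expected counts with M-EV and 102, 169 and 140 with M-LPS-EV, or 0.45%, 0.31% and 0.28% of Dcn abundance against 0.76%, 1.11% and 1.07%. Every M-LPS-EV library was higher than every M-EV library, in count and in share. Dcn-202 went from 1.80 ± 0.452 to 6.98 ± 1.41 TPM (SD, n = 3), which is 1.96 on the log2 scale with an SE of 0.27 (edgeR, adjusted p = 0.013). The call was lost, at almost the same size, without M-EV replicate 2 (adjusted p = 0.070), M-EV replicate 3 (0.058), M-LPS-EV replicate 2 (0.058) or M-LPS-EV replicate 3 (0.057). The error of assigning shared reads is not in these values, and only 71 bases of Dcn-202 belong to no other listed Dcn transcript.

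**Figure D4:**
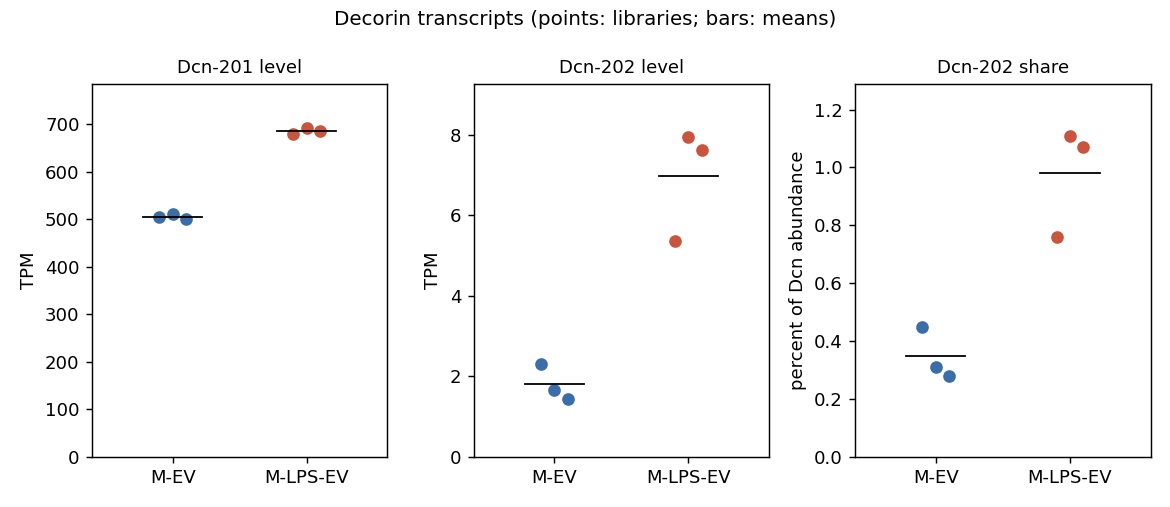
TPM of the main decorin transcript Dcn-201 and the minor transcript Dcn-202 in each library, and the percent of Dcn abundance held by Dcn-202, on separate linear axes that start at 0, with points for libraries and bars at the mean of 3. Both transcripts are higher in all M-LPS-EV libraries, Dcn-202 from a mean of 1.80 to 6.98 TPM.

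Of 8 further SLRP genes and relatives, 6 were tested, 4 rose (66.7%) and 0 fell, against 16.4% and 15.2% of all tested genes, and the median change was 0.40 on the log2 scale. Tsukushi (Tsku), a secreted modulator of BMP and Wnt signalling, rose most, by 1.25 (SE 0.04, edgeR adjusted p = 5.3e-18), from 22.9 to 53.2 TPM. Podocan (Podn) rose by 0.76, its relative Podnl1 by 0.47 and chondroadherin-like (Chadl) by 0.33, in contrast to the fall of Chad itself. Opticin (Optc) was not called (-0.27, SE 0.37), and nyctalopin (Nyx) was not tested.

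The sulfated chains are assembled on the core proteins mainly in the Golgi. Of 21 tested genes of chondroitin and dermatan sulfate synthesis (22 listed), 3 rose (14.3%), 8 fell (38.1%) and 10 were not called, with a median of -0.12. The background for this and the other lists is again 16.4% of tested genes higher and 15.2% lower. At a mean CPM of at least 20, where many of the listed genes lie, it is 20.2% higher and 22.7% lower. The 3 with the smallest p all fell: Xylt1, which attaches the xylose that starts each chain, had a change of -0.20 (SE 0.02), Csgalnact1, which starts chondroitin polymerisation, -0.30 (SE 0.03), and the sulfotransferase Chst11 -0.17 (SE 0.02). Of 10 tested genes for keratan sulfate and tyrosine sulfation (11 listed), 2 rose and 2 fell (20% each), near the background, with a median of -0.06. The galactosyltransferase B4galt1 rose by 0.58 (SE 0.04) and the tyrosyl sulfotransferase Tpst1 changed by -0.29 (SE 0.04). The sulfotransferase Chst2 was called at 0.21 (edgeR adjusted p = 0.024), but not without M-EV replicate 2 (0.101), M-LPS-EV replicate 1 (0.064) or M-LPS-EV replicate 2 (0.063), nor by DESeq2 (0.094).

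Among 14 tested proteases and helpers known to act on SLRPs or procollagen (15 listed), 7 rose (50%), 2 fell (14.3%) and 5 were not called, with a median of 0.22. The matrix metalloproteinases Mmp3 and Mmp13 rose by 6.18 and 2.16, and the procollagen proteinase enhancer Pcolce changed by -0.42 (SE 0.02, edgeR adjusted p = 3.6e-14). Among 14 tested receptors of SLRPs (15 listed), 8 rose (57.1%) and 2 fell (14.3%), with a median of 0.12. Tlr2, a receptor of soluble biglycan and decorin, rose by 1.78 (SE 0.07), the hyaluronan receptor Cd44 by 0.80 (SE 0.04) and Egfr, a receptor of decorin, by 0.38 (SE 0.05). Tlr4, also picked for naming with its values known, rose by 0.46 (edgeR adjusted p = 1.2e-05), a call lost at 0.27 when the effective transcript length entered the fit (adjusted p = 0.19).

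Of 9 tested growth factors that SLRPs bind or modulate (10 listed), 2 rose (22.2%) and 5 fell (55.6%), with a median of -0.30. Ccn2, known as connective tissue growth factor, changed by -0.53 (SE 0.02), Tgfb2 by -0.46 (SE 0.04) and Ccn4 by -0.35 (SE 0.04). Of 13 collagens, all tested, 4 rose (30.8%) and 7 fell (53.8%), with a median of -0.15. Col11a2 and Col11a1, chains of the type XI collagen in the core of cartilage fibrils, changed by -0.45 and -0.34, while Col6a1, a chain of the pericellular type VI collagen that biglycan and decorin bind, rose by 0.46 (SE 0.02). Some collagens also stand in the marker lists.

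**Figure D5:**
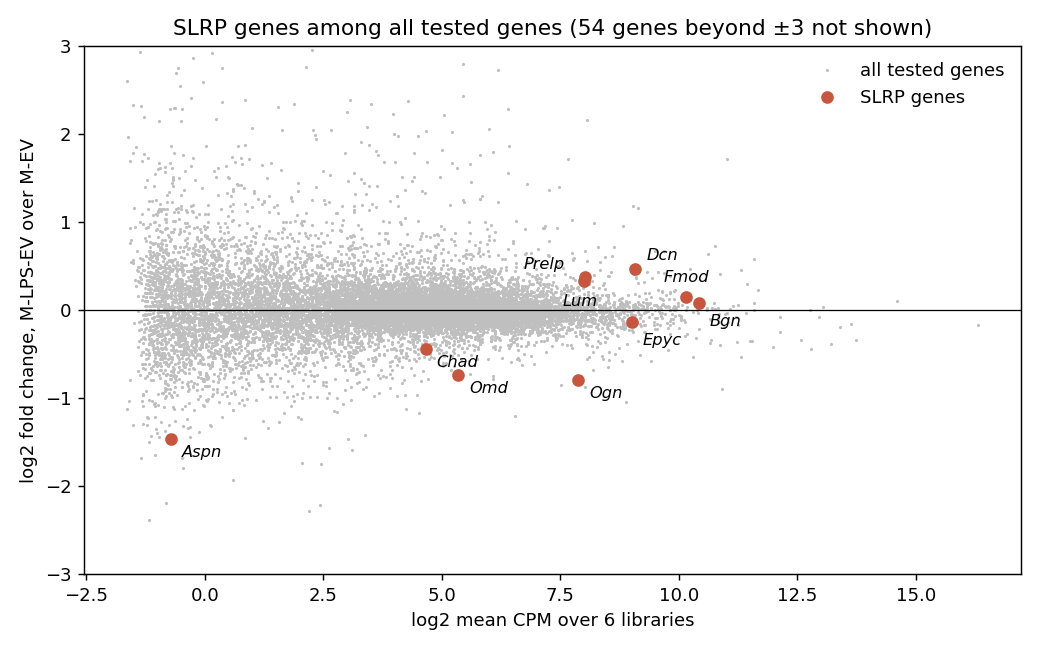
Log2 fold change against mean log2 CPM for all tested genes, with the 10 SLRP genes named and the axis held to 3 in either direction, beyond which 54 genes lie. SLRP genes sit at middle to high CPM with changes between -0.79 and 0.46, except Aspn at the low end.

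Among the 9038 other tested genes at or above a mean CPM of 10, the 3 nearest to Dcn in their pattern over the 6 libraries, by root mean square distance of centred log2 CPM, were Arhgap29 (distance 0.0121), Zfp395 (0.0177) and Pgk1 (0.0177), with log2 fold changes of 0.45, 0.46 and 0.47. For Aspn they were C1qtnf3 (0.308), Msmp (0.312) and Cytl1 (0.321), with changes of -1.20, -1.42 and -1.17. The distances for Aspn are the larger, and genes at its own low level were not searched.

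Other cell types also express SLRPs, so their markers are given beside the changes. Of 12 fibroblast markers 10 were tested, 1 rose, 3 fell and 6 were not called, and their summed level was 574 to 590 TPM in M-EV libraries against 502 to 533 TPM in M-LPS-EV libraries. Most of that sum is collagen: Col1a2 and Col1a1 changed by -0.35 and -0.15, and Col3a1 was not called. Fbln1, the marker that rose with Dcn and Lum, did so by 0.82 (SE 0.10, edgeR adjusted p = 4.9e-07), from 5.05 to 8.65 TPM, and Thy1 changed by -0.72. The median over the tested fibroblast markers was 0.0098. Dpt had 23 and 23 counts over the groups and Clec3b 6 and 1. Of 6 tendon and superficial zone markers 5 were tested and 2 rose, Prg4 by 0.45 and Scx by 0.42, with summed levels of 36.8 to 42.9 and 44.5 to 50.6 TPM. The call of Scx was lost without M-EV replicate 3 (adjusted p = 0.065) or M-LPS-EV replicate 2 (adjusted p = 0.080). Of 8 osteoblast markers 7 were tested, 1 rose (Ibsp, 0.33) and 3 fell, among them Sp7 and Alpl at -0.38 and -0.33, with summed levels of 146 to 152 and 125 to 133 TPM. Of 12 macrophage markers 8 were tested and 4 rose: Adgre1 by 1.503 (SE 0.25, edgeR adjusted p = 4.3e-05), Cd14 by 1.18, Lyz2 by 0.52 and, outside the 3 with the smallest p, Itgam by 0.81 (edgeR adjusted p = 0.031). The summed level lay between 34.9 and 37.0 TPM in M-EV libraries and between 45.0 and 50.5 TPM in M-LPS-EV libraries, most of it Lyz2, while Csf1r, Cd68, Mrc1 and Tyrobp were not called and Ptprc had 23 and 20 counts over the groups and Cx3cr1 2 and 0. Of 5 endothelial markers only Pecam1 was tested, and it was not called. No marker was at 0 in all libraries. The part of these cell types in the SLRP changes was not tested.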

How the data were processed

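Expected counts per transcript were deposited by the authors, with TPM, FPKM (not used) and IsoPct, the transcript's percent of its gene, per the file headers. STAR, RSEM, DESeq2 and mm10 are named in the submitters' processing notes; the sources used here give neither versions nor the strand setting. Expected counts were summed per gene and rounded. Genes were filtered with filterByExpr (minimum count 10, minimum total 15), scaled by TMM and tested with edgeR 4.0.16 (glmQLFit, glmQLFTest, group as the only term, R 4.3.3), two-sided, at a Benjamini-Hochberg adjusted p under 0.05 over all tested genes or transcripts. SE are the log2 fold change over the square root of F, and SD are over 3 libraries. TPM ratios were compared by exact permutation. The fits were tested on simulated data. Of planted changes of 1 on the log2 scale, the gene fit called 43 of 46 and the transcript fit 4 of 41. Of planted changes of 2, they called 48 of 48 and 16 of 44. A transcript that was not called may thus still have changed. No 2 of the 6 libraries agreed within sampling noise. Genes named beside the 10 SLRPs are the tested other SLRPs, up to 3 of each list by smallest p, main transcripts (at least 5% of their gene) and the 3 nearest patterns to the highest and lowest member; exceptions are marked. Some list examples with small p are left out of the text. The members and lists were chosen with earlier results of these data known. Promoter sequences are RefSeq's, positions GENCODE M21's. Alternatives were other scalings (RLE, upper quartile), filters, an effective length offset, a replicate block, leaving out each library, DESeq2 1.42.0, limma 3.58.1 (voom, and trend on log2(TPM + 1)) and a test against at least 1.2-fold.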

Additional observations from a re-analysis of the deposited data

How the results depend on the processing

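The 9 SLRP genes other than Aspn kept their direction under every alternative run. All 9 were called under each except the test against at least 1.2-fold. That test kept 3 of 5 rises and 3 of 4 falls. Its background was 7.79% of all tested genes, and 7.35% where mean CPM was 20 or more. Aspn passed the count filter through the M-EV libraries. It fell and was called in each alternative that tested it, but did not reach a mean count of at least 50. Ranges over the alternatives were 0.45 to 0.48 for Dcn, 0.07 to 0.10 for Bgn, -0.82 to -0.78 for Ogn and -1.85 to -0.46 for Aspn, whose last value is on the log2(TPM + 1) scale. The number of genes called was 4614 (2397 higher, 2217 lower), 2867 (1539, 1328) with an effective length offset, 2622 (1280, 1342) by limma-trend and 1137 (760, 377) against at least 1.2-fold. The number of transcripts called was 1658, 3214 by DESeq2 and 855 to 996 without 1 library; the drop came without each of the 6. The cause of these moves was not tested, beyond the stricter threshold and the fewer libraries. Replicate numbers did not pair the libraries: deviations of same-numbered libraries correlated at -0.16, -0.10 and 0.05. With a replicate block 4519 genes were called, among them the 9 SLRP genes other than Aspn, and also Aspn. That block left 524 transcripts called, and Dcn-202, Epyc-201, Chad-201 and Fmod-201 were not among them. Without 1 library in turn, uncalled values changed sign: Pecam1 from -0.26 to 0.19, Acsf2 from -0.020 to 0.14, Ecm2 from -0.11 to 0.00054 and Bgn-208 from -0.0060 to 0.25. Beside the SLRPs, limma-trend did not call Chst2, Egfr, Prg4, Scx and Tlr4, and the effective length offset did not call Chst2, Scx and Tlr4. The test against at least 1.2-fold did not call Chadl, Xylt1, Csgalnact1, Chst11, Tpst1, Chst2, Egfr, Ccn4, Col1a1, Col2a1, Scx, Sp7 and Alpl. The chondroitin synthesis genes named above are thus all below what that test called. The 6 within-library ratio differences kept their direction under every alternative run. Few counts limit Aspn and Dcn-202.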
